A study of Homo sapiens with 12 samples.

Results

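Gene expression was compared between cells labelled as expressing HOXA9 and control cells of 1833. That line descends from MDA-MB-231, a human triple-negative breast cancer line, and was selected in mice for its spread to bone. The comparison held 5 of the 12 columns of the series: 3 control arrays and replicates 1 and 2 of HOXA9. The column given as HOXA9 replicate 3 departed from the mean of replicates 1 and 2 by at most 7e-09 and was left out as a derived column. RNA was hybridised to Affymetrix human gene arrays, which read each gene through a set of probes, and 18417 genes with a probe set of their own were measured.

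The labels name no construct for the control cells. The HOXA9 cells carried an inducible HOXA9 gene behind the tetracycline-responsive TRE3G promoter and a Tet-On 3G regulator driven by the CMV promoter, both delivered in lentiviral vectors. These cells were selected in puromycin at 0.5 µg/ml and G418 at 500 µg/ml and grew in tetracycline-free serum, unlike control. The dose and duration of an inducer, and whether the line was 1 clone, are not given in the sources used here. A line with inducible Tet1 was made, selected and grown in the same way, and 2 arrays of it served as the nearest comparison. The model also held 3 arrays labelled shHMGA2, from 1833 cells selected in puromycin at 0.5 µg/ml. The spread behind each test and the joint normalization thus drew on 10 arrays. The source names of the HOXA9 and Tet1 samples give subline 1834, while their titles give 1833. The labels call the arrays biological replicates without naming separate cultures, so the spread between arrays may be partly technical.

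HOXA9 is a homeobox transcription factor of the HOXA cluster. Homeobox proteins bind short AT-rich DNA sites with low selectivity on their own and gain selectivity with PBX and MEIS partner proteins. HOXA9 is best known for keeping blood progenitors immature and for its part in acute leukaemia, and it also patterns the limb, the kidney and the mammary gland. In breast tumours it has been described as a factor that restrains growth. The title of the series places it downstream of HMGA2 and TET1.

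Whether HOXA9 itself was raised could not be read, because no probe set was assigned to HOXA9 in the annotation used. Of the 12 HOXA cluster entries looked for, only HOXA2 and EVX1 had a probe set of their own. HOXA2 read 6.11, 6.29 and 6.18 in control and 6.32 and 6.09 in HOXA9, and the groups overlapped. The label of the HOXA9 arrays is therefore not checked by the targeted gene, and HMGA2 had no probe set of its own. A probe set shared by HMGA2 and ELAC2 read 9.55, 9.65 and 9.48 in control and 10.41 in both HOXA9 arrays. It read 10.43 and 10.42 in Tet1 and 8.93, 9.02 and 8.47 in shHMGA2. Its HOXA9 minus control difference was 0.85 as deposited and 0.9 after quantile normalization, against -0.22 and -0.14 on the probe set of ELAC2 alone. TET1, the target of the sister line, read 6.59, 6.45 and 6.66 in control against 7.2 and 7.4 in HOXA9. That difference of 0.73 passed the test as deposited (limma adjusted p = 0.00042) but not after quantile normalization, where it was 0.2 (adjusted p = 0.24). In the arrays labelled Tet1 the same probe set read 7.16 and 6.98, no higher than in HOXA9, and it read 8.72, 8.92 and 9.29 in the arrays labelled shHMGA2. Its difference between the arrays labelled Tet1 and control was 0.5 as deposited (adjusted p = 0.0052) and -0.06 after quantile normalization (adjusted p = 0.74), so this probe set does not bear out the label. The sources used here do not say which part of TET1 the construct carries, and Tet1 below stands for the arrays so labelled.

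The arrays fell into 2 sets with unlike value distributions. Array medians were 7.21 to 7.23 in control and 7.66 to 7.71 in HOXA9, and lower quartiles 5.75 to 5.76 and 6.23 to 6.25. Correlations between arrays over all probe sets were 0.996 to 0.997 within control, 0.995 between the HOXA9 arrays, 0.993 to 0.997 between HOXA9 and Tet1, and 0.957 to 0.966 between HOXA9 and control. Each group lay in a single set, so the HOXA9 construct, the array set, the serum, the selection, the regulator and a possible other parent subline cannot be told apart in any difference from control. The HOXA9 and Tet1 arrays lie in 1 set, and their difference is free of what the set, serum, selection and regulator share.

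Against control, limma called 13938 of 18417 genes at a Benjamini-Hochberg adjusted p under 0.05, or 75.7% of those tested. Of these, 9952 were higher (54.0%) and 3986 lower (21.6%), with a median change over all genes of 0.24 on the log2 scale. The balance moved with the scaling: the same fit called 5478 genes higher and 6267 lower after 1 quantile normalization over the 10 arrays (median change -0.02), and 3730 higher and 9406 lower with equal array medians (median change -0.21). Of the genes tested, 538 were called in opposite directions as deposited and after quantile normalization. A change is therefore written as a rise or fall here only where both scalings called it, which held for 5334 genes higher (29.0%) and 3773 lower (20.5%), together 49.4%. A stricter set changed at least 2-fold in both scalings, with 417 higher (2.26% of genes tested) and 322 lower (1.75%), together 4.01%. With equal array medians in place of the deposited scaling, the balance turned over, to 3322 higher and 5983 lower called and to 269 higher and 555 lower at 2-fold. Changes are given on the log2 scale as deposited, with the standard error of the fit, and folds are given in both scalings where they bear on the result. Counts of list members called in both scalings below are to be read beside 29.0% higher and 20.5% lower of all genes. Counts with equal array medians are to be read beside 3730 higher and 9406 lower of all 18417 genes, where 28.4% of calls were higher. A list's turn towards falls with equal medians is thus seen over all genes too and is no result about that list.

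**Figure D1:**
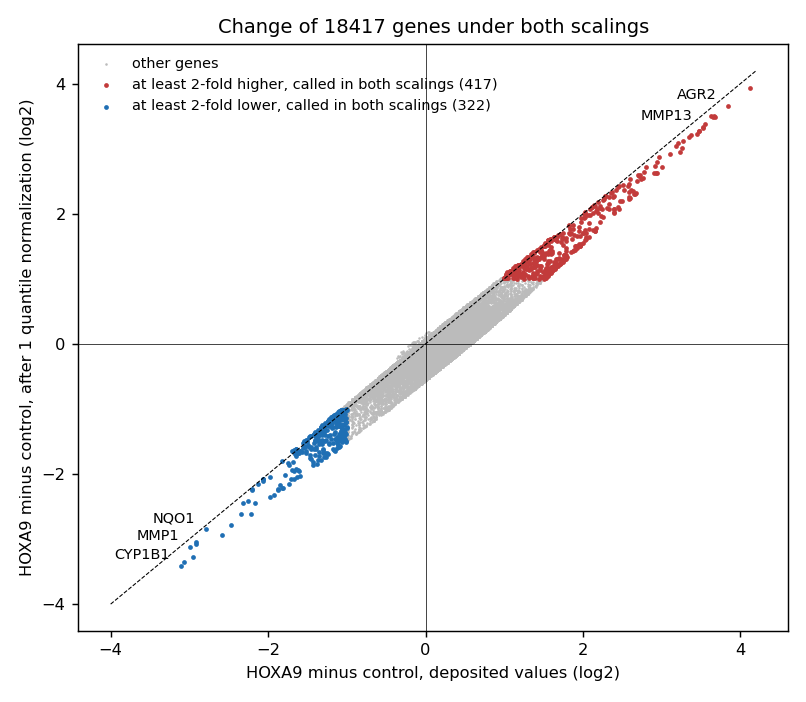
Each point is 1 of 18417 genes, with the HOXA9 minus control difference of the deposited log2 values on the x axis and the same difference after 1 quantile normalization on the y axis. The dashed line marks equal values. The 417 red and 322 blue genes changed at least 2-fold in both scalings, and most grey points lie below the line, because quantile normalization lowered the median change from 0.24 to -0.02.

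The largest rise among the genes chosen by rule was that of AGR2, a secretory-pathway disulfide isomerase known from oestrogen receptor positive breast cancer. AGR2 read 6.63, 6.09 and 7.0 in the control arrays and 10.34 and 10.49 in the HOXA9 arrays, a rise of 3.84 ± 0.18 (SE), or 14.3-fold as deposited and 12.5-fold after quantile normalization (limma adjusted p = 1.9e-08). Both HOXA9 arrays lay far above every control array, and the Tet1 arrays, at 9.53 and 9.59, were also high. TMPRSS15, the enteropeptidase that activates trypsinogen in the gut, read 6.01, 6.24 and 6.83 in control and 9.87 and 10.21 in HOXA9 (rise of 3.68 ± 0.19). MMP13, an interstitial collagenase active in bone and cartilage, read 5.39, 5.27 and 5.35 in control and 8.75 and 8.99 in HOXA9 (rise of 3.53 ± 0.08). The rule took only genes whose groups do not overlap, for leading genes and list members alike. A lack of overlap in them is therefore no separate result. Of AGR2, TMPRSS15 and MMP13, MMP13 had the tightest control values.

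HSPA6, a heat-inducible HSP70 chaperone, read 6.41, 6.33 and 6.26 in control and 9.9 and 9.81 in HOXA9. COL6A3, a chain of the beaded-filament collagen VI, read 6.42, 6.32 and 6.32 in control and 9.81 and 9.86 in HOXA9. CD96, a receptor of T and NK cells, read 6.95, 6.34 and 6.96 in control and 10.1 and 10.33 in HOXA9. The rises of HSPA6, COL6A3 and CD96 were 3.52, 3.48 and 3.47, each over 9-fold in both scalings. SLC14A1, a urea transporter of kidney and red cells, read 6.59, 6.47 and 7.31 in control and 10.09 and 10.19 in HOXA9. ANGPTL4, a secreted inhibitor of lipoprotein lipase, read 7.73, 7.18 and 7.36 in control and 10.63 and 10.76 in HOXA9. S100A4, a calcium-binding protein linked to cell motility, read 7.63, 7.39 and 7.64 in control and 10.82 and 10.64 in HOXA9. SLC14A1, ANGPTL4 and S100A4 thus rose by 3.35 ± 0.18, 3.27 ± 0.13 and 3.18 ± 0.11.

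TGFBI, a matrix protein induced by TGF-beta, rose by 2.97 ± 0.1 from 8.33 ± 0.15 (SD, n = 3) to 11.3 ± 0.03 (SD, n = 2). The neuronal adhesion protein SLITRK6 rose by 2.94 and the fibronectin-leucine-rich repeat protein FLRT3 by 2.93. Control values of MMP13, SLITRK6 and FLRT3 lay below 6.22, the 30th percentile of all values, and the table has no detection calls, so their folds are those of the measured values and can understate a change in RNA.

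**Figure D2:**
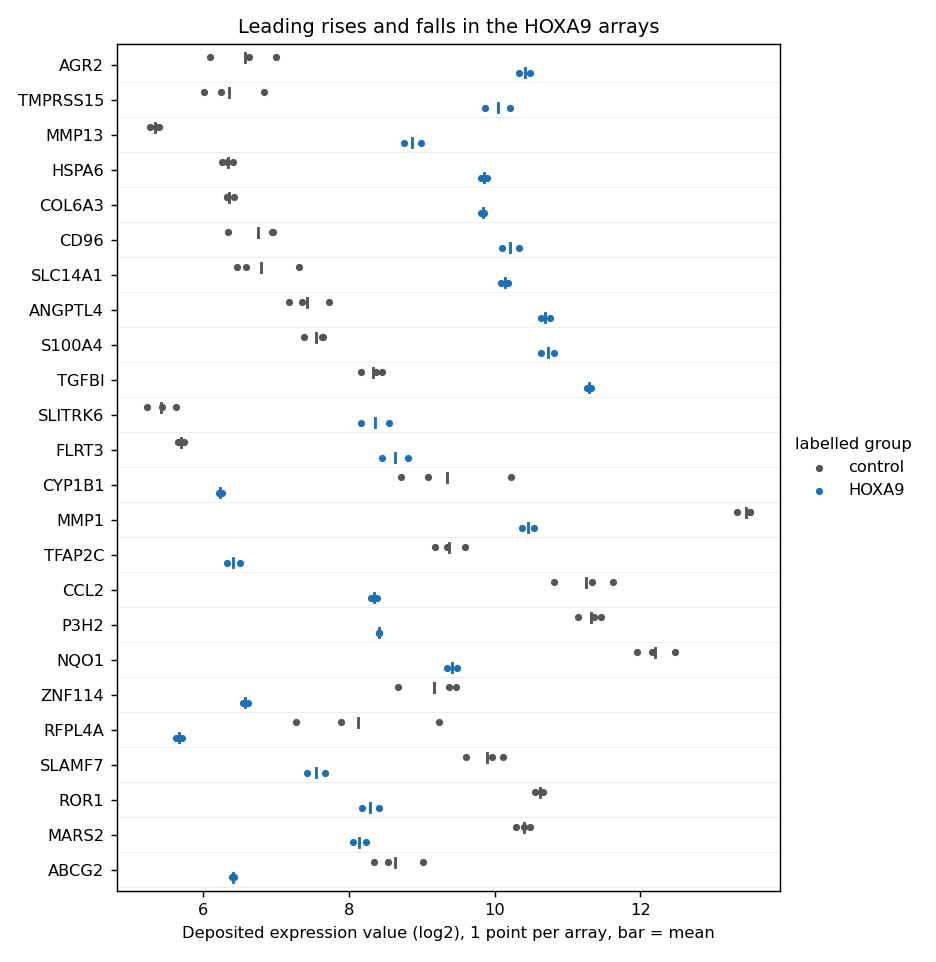
The 12 largest rises and 12 largest falls in HOXA9 against control, chosen by rule, are shown with 1 point per array (3 control, 2 HOXA9), a bar at each group mean and the deposited log2 value on the x axis. The rule took only genes whose groups do not overlap. The control arrays are widest apart for CYP1B1 and RFPL4A.

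Among the falls, CYP1B1, a cytochrome P450 that the aryl hydrocarbon receptor induces, read 10.22, 8.72 and 9.09 in control and 6.26 and 6.21 in HOXA9. The fall was -3.11 with the wide standard error of 0.5, since control replicate 1 stood above the other two, and it remained called without that array. MMP1, a fibrillar collagenase known from bone metastasis, read 13.5, 13.51 and 13.33 in control and 10.37 and 10.54 in HOXA9, a fall of -2.99 ± 0.1 or 7.93-fold as deposited and 8.67-fold after quantile normalization. TFAP2C, a transcription factor of the mammary epithelium, read 9.6, 9.18 and 9.35 in control and 6.51 and 6.32 in HOXA9. Thus MMP13 and MMP1, collagenases of the same family, moved in opposite directions. The monocyte chemoattractant CCL2 read 11.34, 10.81 and 11.63 in control and 8.3 and 8.38 in HOXA9. P3H2, which hydroxylates proline in collagen chains, read 11.46, 11.36 and 11.14 in control and 8.41 in both HOXA9 arrays. NQO1, a quinone reductase induced by NRF2, read 12.48, 12.16 and 11.96 in control and 9.34 and 9.48 in HOXA9. CCL2, P3H2 and NQO1 fell by 2.92, 2.91 and 2.79.

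The other leading falls were ZNF114 (-2.59), RFPL4A (-2.47), the immune-cell receptor SLAMF7 (-2.35), the orphan receptor tyrosine kinase ROR1 (-2.32), the mitochondrial methionyl-tRNA synthetase MARS2 (-2.25) and the drug efflux pump ABCG2 (-2.22). RFPL4A had the widest control values of these, 9.23, 7.27 and 7.89, and its HOXA9 values of 5.71 and 5.62 lay below the 30th percentile. ROR1 read 10.63, 10.55 and 10.67 in control and 8.41 and 8.18 in HOXA9. MARS2 read 10.41, 10.49 and 10.3 in control and 8.06 and 8.23 in HOXA9.

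Genes of the response to low oxygen and of glycolysis formed the list with the largest share of 2-fold rises. HIF, the oxygen-sensitive transcription factor, binds a short core site and switches on glycolytic enzymes, glucose uptake and mitophagy genes. Of 31 measured members, 19 rose and 2 fell in both scalings, and 12 rose and 0 fell at least 2-fold, or 38.7% against 2.26% of all genes. The list median was 0.62 as deposited and 0.54 after quantile normalization, beside 0.24 and -0.02 over all genes. NDRG1, a stress-response protein that hypoxia induces, read 11.35, 10.42 and 11.13 in control and 13.12 and 13.16 in HOXA9. PFKFB4, which makes an activator of phosphofructokinase, read 7.37, 7.31 and 7.39 in control and 9.14 and 9.34 in HOXA9. NDRG1 thus rose by 2.17 ± 0.19 and PFKFB4 by 1.88 ± 0.07. KDM3A, a histone H3 lysine 9 demethylase, rose by 1.66, the glucose transporter SLC2A3 by 1.63 and the mitophagy receptor BNIP3 by 1.5. The glycolytic isozymes ALDOC and ENO2 rose by 1.46 and 1.44, the HIF prolyl hydroxylase EGLN3 by 1.44 and ANKRD37 by 1.4. The pyruvate dehydrogenase kinase PDK1 rose by 1.35 and PFKFB3 by 1.25. Not every classical member moved: VEGFA read 10.95, 10.07 and 10.4 in control and 10.46 and 10.44 in HOXA9, and the glucose transporter SLC2A1 read 12.62, 12.53 and 12.58 against 12.72 and 12.73. PFKM fell by 0.43, and limma called 0 members different between HOXA9 and Tet1 at adjusted p under 0.05 and 3 at an unadjusted p under 0.05. With equal array medians 15 members were higher and 10 lower.

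The promoters of 3 of these genes show the HIF core motif ACGTG, searched on both strands in a 300-base window that is mostly upstream of the start site (RefSeq, GRCh38.p14). The motif stood in 7 of the 10 2-fold rising members with a promoter in the table (70.0%) and in 17 of the 27 measured members with one (63.0%), against 28.9% of the 14239 genes tested that had one. A gene with several promoters was counted once if any held the motif. ANGPTL4 lies at chr19:8363905-8364204, the second promoter of PDK1 at chr2:172555840-172556139 and ENO2 at chr12:6914330-6914629, all on the plus strand, and the matches are in capitals. They are shown as examples of 2-fold rising members that hold the motif, and a match is not evidence that HIF was bound.
ANGPTL4: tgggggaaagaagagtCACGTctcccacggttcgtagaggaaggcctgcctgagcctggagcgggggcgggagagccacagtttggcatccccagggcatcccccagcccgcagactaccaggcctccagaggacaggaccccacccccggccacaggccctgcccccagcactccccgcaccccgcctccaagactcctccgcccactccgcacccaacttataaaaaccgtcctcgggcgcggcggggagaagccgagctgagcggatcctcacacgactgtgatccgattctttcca
PDK1: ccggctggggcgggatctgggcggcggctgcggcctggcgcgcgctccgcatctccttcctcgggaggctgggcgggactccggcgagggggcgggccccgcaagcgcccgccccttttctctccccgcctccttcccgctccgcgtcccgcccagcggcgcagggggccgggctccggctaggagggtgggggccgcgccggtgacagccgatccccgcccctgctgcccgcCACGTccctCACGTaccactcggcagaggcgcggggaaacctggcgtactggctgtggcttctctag
ENO2: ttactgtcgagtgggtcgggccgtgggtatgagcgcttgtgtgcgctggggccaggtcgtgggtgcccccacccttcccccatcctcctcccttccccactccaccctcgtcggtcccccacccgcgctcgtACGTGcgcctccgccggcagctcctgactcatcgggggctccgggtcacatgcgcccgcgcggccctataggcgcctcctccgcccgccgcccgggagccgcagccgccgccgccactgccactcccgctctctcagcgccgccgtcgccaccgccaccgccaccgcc

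Among matrix genes, most collagen chains and integrins were called higher, while metalloproteinases and matrix glycoproteins were called at shares nearer those of all genes. The share of 2-fold rises split these lists otherwise. It was 16.1% in matrix glycoproteins, 15.8% in integrins and 14.8% in collagen chains, but 4.55% in metalloproteinases and their inhibitors. Collagens form fibrils and basement membranes, integrins are the receptors that hold cells to them, and metalloproteinases cut them. Of 27 collagen chains, 18 rose and 2 fell in both scalings, with 4 rising and 1 falling at least 2-fold (14.8% and 3.7%). Beside COL6A3, the other chains of collagen VI rose as well: COL6A1 read 9.67, 9.17 and 9.15 in control and 10.48 and 10.45 in HOXA9, and COL6A2 read 8.77, 8.68 and 8.65 in control and 10.02 in both HOXA9 arrays. The basement membrane chain COL4A1 rose by 1.46 ± 0.07 and the fibrillar chain COL1A2 by 1.34 ± 0.08, 2.53-fold as deposited and 1.94-fold after quantile normalization. COL8A1 fell by 1.46 ± 0.2. In the Tet1 arrays the fibrillar chains stood higher than in HOXA9: COL1A1 read 8.83 and 8.78 in HOXA9 and 9.38 and 9.35 in Tet1, a difference of -0.56 ± 0.08 (adjusted p = 0.0084), and COL1A2 differed by -0.46 ± 0.08 (adjusted p = 0.044).

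Among 21 collagen-modifying enzymes, 9 rose and 3 fell in both scalings, but with equal array medians 5 were higher and 8 lower. P4HA1, a prolyl 4-hydroxylase subunit that hypoxia also induces, rose by 1.56 from 9.99 ± 0.18 (SD, n = 3) to 11.55 ± 0.11 (SD, n = 2). The lysyl hydroxylase PLOD1 rose by 1.0 and its relative PLOD3 fell by 0.85, while P3H2 was the leading fall described above. Matrix glycoproteins had 11 of 31 members higher and 6 lower in both scalings, a balance that turned to 8 higher and 13 lower with equal medians. At least 2-fold in both scalings, 5 rose (16.1%) and 1 fell (3.23%), beside 2.26% and 1.75% of all genes. Fibronectin, FN1, rose by 2.38 ± 0.2, from 11.16, 10.38 and 10.66 to 13.09 and 13.14. SPARC, a collagen-binding protein of bone and stroma, rose by 1.9 ± 0.08, the laminin chain LAMB1 by 1.41 and tenascin-C, TNC, by 1.56. EFEMP1 fell by 1.49 ± 0.14 and thrombospondin-1, THBS1, by 0.85 ± 0.15.

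Of 19 integrins, 12 rose and 0 fell in both scalings, and 3 rose at least 2-fold. The list median was 0.49 as deposited and 0.27 after quantile normalization, and with equal array medians 7 were higher and 4 lower. ITGA10, a collagen receptor of cartilage, read 7.12, 6.38 and 6.67 in control and 9.21 and 9.45 in HOXA9. ITGB3, the beta chain of the vitronectin receptor through which cells hold to bone matrix, read 8.22, 7.76 and 7.89 in control and 9.74 and 9.81 in HOXA9. ITGB8, a chain that releases latent TGF-beta, read 7.43, 6.75 and 7.41 in control and 8.74 in both HOXA9 arrays. ITGA10, ITGB3 and ITGB8 rose by 2.61, 1.82 and 1.55.

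Metalloproteinases and their inhibitors had 7 of 22 members higher (31.8%) and 6 lower (27.3%) in both scalings, beside 29.0% and 20.5% of all genes. At least 2-fold, 1 rose (4.55%) and 2 fell (9.09%). Beside MMP13 and MMP1, the gelatinase MMP2 rose by 1.35 ± 0.1, 2.55-fold as deposited and 1.78-fold after quantile normalization, from control values of 6.05 to 6.3 near the 30th percentile. TIMP1, an inhibitor of these enzymes, rose by 1.0 ± 0.12. MMP3, a stromelysin, fell by 1.09 with a standard error of 0.33, because control replicate 1 read 8.16 and the other two 7.03 and 7.02, and the fall lost its call without HOXA9 replicate 1. The membrane-bound MMP16 fell by 0.96 ± 0.18. In the plasminogen system, 8 of 16 members rose and 0 fell in both scalings, though 4 were lower with equal array medians. The plasminogen activator PLAU read 10.8, 10.38 and 10.74 in control and 11.69 and 11.72 in HOXA9, and the serpin SERPINE2, which inhibits thrombin and PLAU, read 9.44, 9.26 and 9.18 against 10.52 and 10.62. SERPINE2 also stood 0.73 ± 0.13 above its Tet1 level (adjusted p = 0.037).

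TGF-beta is released from bone matrix and drives metastatic cells there to make osteolytic factors. Of 29 genes of its response, 13 rose (44.8%) and 9 fell (31.0%) in both scalings, beside 29.0% and 20.5% of all genes. At least 2-fold, 5 rose and 2 fell. The balance turned to 9 higher and 15 lower with equal array medians, beside 3730 higher and 9406 lower of all 18417 genes. PMEPA1, a feedback inhibitor of the pathway, read 7.5, 7.34 and 7.42 in control and 10.12 and 10.28 in HOXA9 (rise of 2.78 ± 0.1). BHLHE40, a stress-responsive repressor, rose by 2.6 ± 0.16. The latent TGF-beta binding proteins LTBP1 and LTBP2 rose by 1.82 and 1.21. The ligand itself went the other way: TGFB2 read 10.84, 11.02 and 11.18 in control and 8.68 and 8.94 in HOXA9, a fall of -2.2 ± 0.11. ID3, a target of the BMP branch, fell by 1.59 ± 0.12.

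Of 24 genes tied to breast cancer bone metastasis, 8 rose (33.3%) and 10 fell (41.7%) in both scalings, beside 29.0% and 20.5% of all genes. At least 2-fold, 2 rose and 3 fell. The rises included cyclooxygenase-2, PTGS2, from 8.08, 7.48 and 8.24 to 9.58 and 9.77, and osteopontin, SPP1, from 5.67, 5.55 and 5.55 to 6.86 and 6.92. SPP1 rose 2.46-fold as deposited and 1.74-fold after quantile normalization, from control values below the 30th percentile. The 3 2-fold falls were MMP1, TGFB2 and BMP4, a bone morphogenetic protein that fell by 1.64 ± 0.14 from 11.03 ± 0.08 (SD, n = 3). CXCR4, the chemokine receptor that guides homing to marrow, read 8.28, 8.79 and 9.23 in control and 9.68 and 9.7 in HOXA9. Its rise of 0.92 ± 0.21 passed in both scalings but not with equal array medians, where it was 0.47 (adjusted p = 0.062). The osteoblast factor RUNX2 and the Notch ligand JAG1 were not called in both scalings, at -0.21 and 0.33. TNFRSF11B, the decoy receptor that blocks osteoclast formation, rose by 1.19 ± 0.09 against control and stood 0.78 ± 0.1 above Tet1 (adjusted p = 0.0044).

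**Figure D3:**
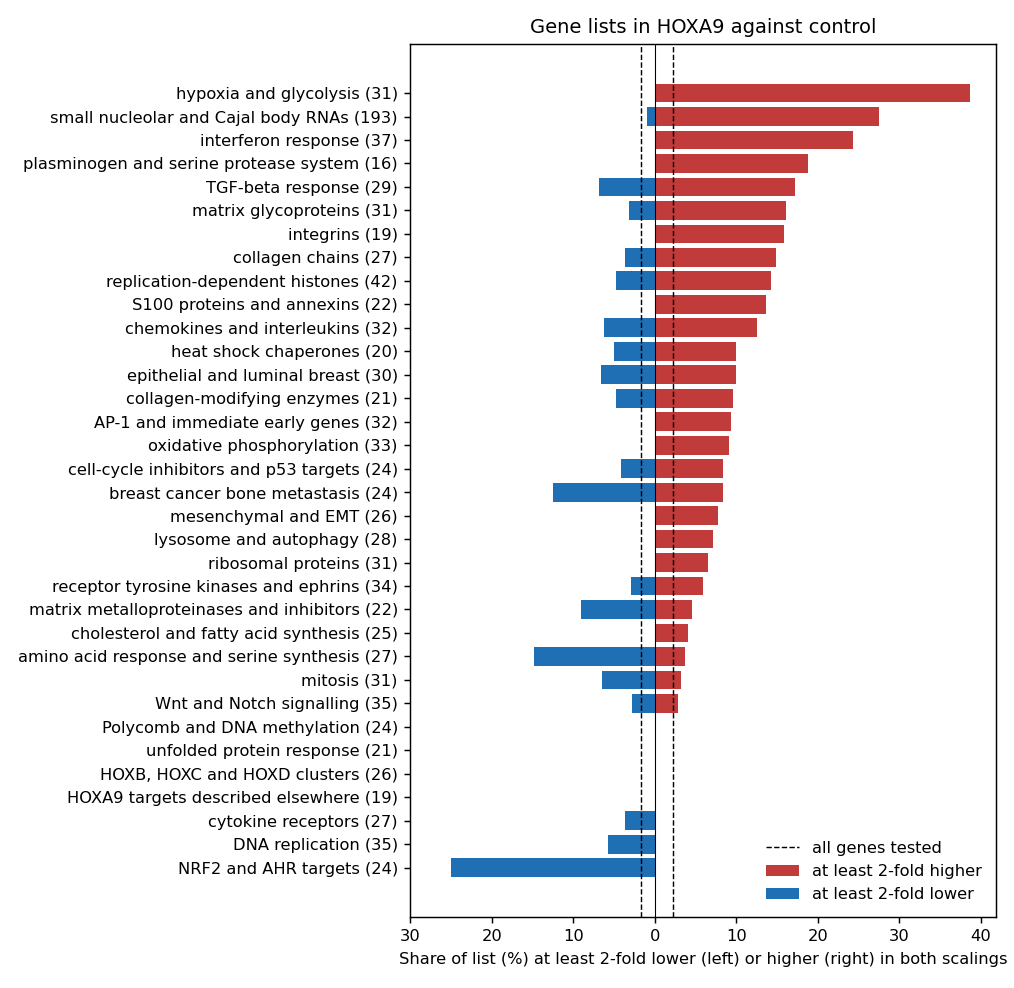
Bars give the share of each list's measured genes (number in parentheses) that rose (right) or fell (left) at least 2-fold in HOXA9 against control in both scalings. Dashed lines mark the shares over all genes tested, 2.26% higher and 1.75% lower. Hypoxia and glycolysis reached 38.7% on the right, and NRF2 and AHR targets 25% on the left.

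Of the interferon-response genes, 56.8% rose in both scalings, beside 29.0% of all genes. They encode proteins that block viral entry, degrade viral RNA and present antigen. Of 37 measured members, 21 rose and 1 fell in both scalings, and 9 rose and 0 fell at least 2-fold, or 24.3%. Their median change was 0.68 as deposited and 0.42 after quantile normalization, and with equal array medians 19 were higher and 10 lower. IFI27 read 6.35, 6.52 and 6.44 in control and 9.0 and 8.86 in HOXA9 (rise of 2.49 ± 0.08). IFITM1, which hinders viral fusion, read 8.87, 8.97 and 9.62 against 11.43 and 11.58. BST2, or tetherin, which holds budding virions to the cell, read 7.45, 7.62 and 8.0 against 9.84 and 9.97. IFIT1, OASL, OAS2, IFI44L, IFIT2 and IFITM2 made up the other 2-fold rises, at 1.87, 1.61, 1.53, 1.52, 1.31 and 1.21. The 1 falling member, IFIT5, moved by -0.42 and lost its call without HOXA9 replicate 1. OAS1, a sensor of double-stranded RNA, stood above Tet1: it read 8.47 and 8.45 in HOXA9, 7.87 and 7.83 in Tet1 and 7.52, 7.37 and 7.69 in control (HOXA9 minus Tet1 0.61 ± 0.1, adjusted p = 0.018). The class I light chain B2M rose by 1.19 ± 0.09.

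Chemokines and interleukins had 9 of 32 members higher (28.1%) and 8 lower (25%) in both scalings, near the shares of all genes, and 8 higher and 14 lower with equal medians. At least 2-fold in both scalings, 4 rose (12.5%) and 2 fell (6.25%), beside 2.26% and 1.75% of all genes. The death ligand TNFSF10, also called TRAIL and interferon-inducible, rose by 2.4 ± 0.21 from 6.07, 6.13 and 7.0 to 8.67 and 8.93. CCL26, an eosinophil chemoattractant, rose by 2.15 ± 0.11 and CXCL8, a neutrophil chemoattractant, by 1.52 ± 0.11. CCL2 fell as described, IL24 fell by 1.43 ± 0.2 and CSF1, the macrophage growth factor, by 0.95 ± 0.16. Of 27 cytokine receptors, 10 rose and 5 fell in both scalings, turning to 5 higher and 15 lower with equal medians, and 0 rose and 1 fell at least 2-fold. That fall was the interleukin-7 receptor chain IL7R, which fell by 1.73 ± 0.17, from 9.96, 10.09 and 10.27 to 8.32 and 8.44.

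Targets of NRF2, the sensor of oxidative stress, and of the aryl hydrocarbon receptor held the largest share of 2-fold falls. Of 24 measured members, 3 rose and 12 fell in both scalings, and 0 rose and 6 fell at least 2-fold, or 25% against 1.75% of all genes. The list median was -0.21 as deposited and -0.42 after quantile normalization. Beside CYP1B1 and NQO1, the glutathione-synthesis subunit GCLM read 9.03, 8.97 and 8.8 in control and 7.13 and 7.31 in HOXA9. The cystine importer SLC7A11 read 12.46, 12.3 and 12.19 against 10.72 and 10.82, and malic enzyme, ME1, fell by 1.4 ± 0.11. CYP1A1, like CYP1B1 a target of the aryl hydrocarbon receptor, read 8.44, 7.13 and 7.46 in control and 5.97 and 6.05 in HOXA9, with control replicate 1 the highest in both genes. Against this direction, heme oxygenase, HMOX1, rose by 0.9 ± 0.07 and was lower in HOXA9 than in Tet1, at 8.88 and 8.87 against 9.78 and 9.67.

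Amino acid uptake and serine synthesis genes, which the factor ATF4 is known to control, fell more often than they rose, with 5 of 27 higher and 12 lower in both scalings and 4 lower at least 2-fold. PSAT1, an enzyme of serine synthesis, read 10.5, 10.49 and 10.26 in control and 8.81 and 8.9 in HOXA9. The leucine carrier SLC7A5 read 11.64, 11.38 and 11.6 against 9.99 and 10.13. The glutamine carrier SLC1A5 fell by 1.33 ± 0.07 on the probe set used, but another, dimmer probe set of the gene read 0.45 higher. SLC7A11 stands in both this list and the preceding one. The mTORC1 inhibitor DDIT4, which hypoxia also induces, was the 1 member that rose at least 2-fold, from 8.13, 7.47 and 8.05 to 10.08 and 10.05.

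**Figure D4:**
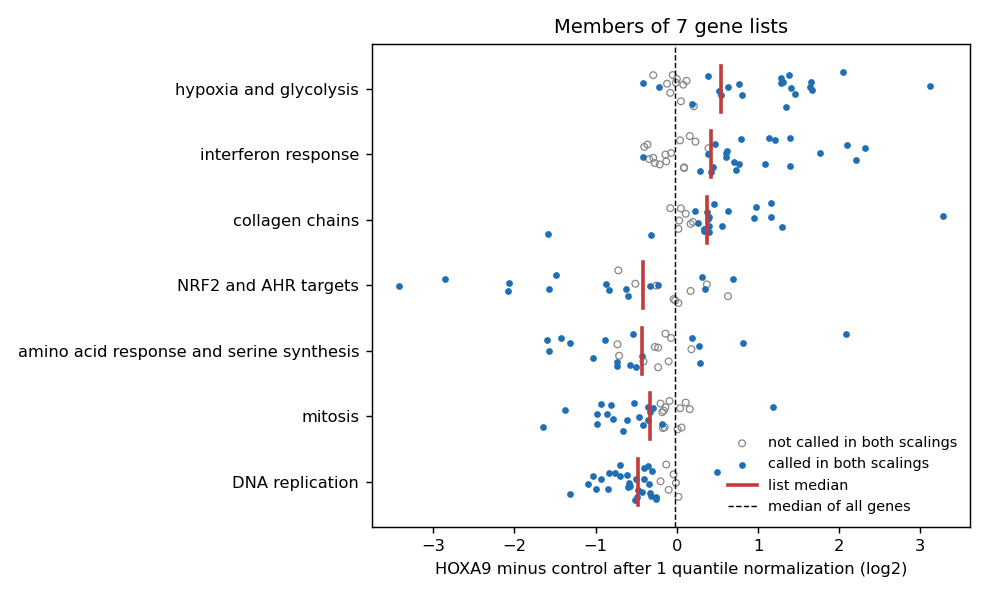
Each point is a gene of 1 of 7 lists, placed at its HOXA9 minus control difference (log2) after 1 quantile normalization, with filled points called in both scalings, a red bar at the list median and a dashed line at the median of all genes, -0.02. List medians lie between 0.37 and 0.54 for hypoxia, interferon and collagen genes, and between -0.48 and -0.33 for the other 4 lists.

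Cell division genes were lower. Of 35 DNA replication genes, 1 rose and 28 fell in both scalings (80.0% of the list beside 20.5% of all genes), with medians of -0.46 and -0.48. CDC6, which loads the replicative helicase at origins, read 11.8, 11.74 and 11.79 in control and 10.22 and 10.68 in HOXA9. GINS1, a subunit of the active helicase, read 10.77, 10.82 and 10.75 against 9.61 and 9.66, and GINS2 fell by 1.0 ± 0.07. These falls were moderate: 2 genes, CDC6 and GINS1, reached 2-fold in both scalings, while the helicase subunits MCM3 and MCM7 fell by 0.46 and 0.35. MCM2 fell by 0.23 and lost its call without HOXA9 replicate 1. DNA ligase LIG1 was the 1 member higher in both scalings, at 0.6, and its call was lost with equal array medians, at 0.14.

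Replication genes are known targets of E2F factors, and their promoters were searched on both strands for the E2F sites TTTGGCGC and TTTCGCGC. Of the 24 falling replication genes with a promoter in the table, 9 held a site (37.5%), as did 11 of the 31 measured members with one (35.5%), against 1.97% of all 14239 genes. CDC6 (chr17:40287629-40287928) and GINS1 (chr20:25407423-25407722), both on the plus strand of GRCh38.p14 in RefSeq, are shown as the replication genes with the largest falls, with the site in capitals.
CDC6: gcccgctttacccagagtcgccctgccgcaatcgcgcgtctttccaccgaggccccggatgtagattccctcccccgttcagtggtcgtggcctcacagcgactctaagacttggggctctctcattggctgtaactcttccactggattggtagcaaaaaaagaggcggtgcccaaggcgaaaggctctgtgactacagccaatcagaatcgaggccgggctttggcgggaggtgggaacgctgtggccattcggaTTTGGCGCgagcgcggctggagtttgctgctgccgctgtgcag
GINS1: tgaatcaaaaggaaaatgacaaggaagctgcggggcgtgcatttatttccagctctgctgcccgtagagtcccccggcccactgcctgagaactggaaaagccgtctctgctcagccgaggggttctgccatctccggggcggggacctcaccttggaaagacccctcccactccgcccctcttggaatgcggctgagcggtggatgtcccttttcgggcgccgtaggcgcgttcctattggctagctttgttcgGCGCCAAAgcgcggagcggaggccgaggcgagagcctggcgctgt

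Mitotic genes followed the same direction, with 1 of 31 higher and 18 lower in both scalings and medians of -0.4 and -0.33. CDC20, which activates the anaphase-promoting complex, read 12.37, 12.63 and 12.51 in control and 10.85 and 10.96 in HOXA9 (fall of -1.6 ± 0.08). AURKB, the kinase that corrects chromosome attachment, fell by 1.42 ± 0.08 and cyclin A2, CCNA2, by 1.01 ± 0.08. PTTG1, or securin, was the exception and rose by 1.16 ± 0.11. Of 24 cell-cycle inhibitors and p53 targets, 9 rose and 4 fell in both scalings, turning to 3 higher and 13 lower with equal medians. TP53INP1 rose by 1.39 ± 0.17 and the antiproliferative BTG1 by 1.05 ± 0.07, while the polo-like kinase PLK2 fell by 1.52 ± 0.08 and the retinoblastoma gene RB1 by 0.76 ± 0.08. Between HOXA9 and Tet1, limma called 0 replication and 0 mitotic genes at adjusted p under 0.05 and 5 of each at an unadjusted p under 0.05. The median HOXA9 minus Tet1 differences of these lists were 0.08 and 0.14.

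Polycomb and DNA methylation genes fell more often than they rose, with 3 of 24 higher and 14 lower in both scalings and 0 at 2-fold in either direction. EZH2, the histone H3 lysine 27 methyltransferase, read 11.48, 11.59 and 11.45 in control and 10.62 and 10.67 in HOXA9. Its partner SUZ12 fell by 0.72 ± 0.06 and the DNA methyltransferase DNMT3B by 0.8 ± 0.11. Replication-dependent histones moved both ways, 19 of 42 higher and 12 lower in both scalings and 15 higher and 20 lower with equal medians. H2AC13 rose by 2.22 ± 0.08, H2BC3 by 2.01 ± 0.1 and H2AC4 by 1.64, whereas H2BC14 fell by 1.28 ± 0.22 and H4C8 by 1.05 ± 0.1. Histone genes are near copies of each other, and probes may not separate them.

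Lineage markers did not shift as a body. Of 30 epithelial and luminal breast genes, 13 rose and 4 fell in both scalings, and 11 were higher and 12 lower with equal medians. Beside AGR2, the tight-junction proteins CLDN4 and CLDN7 rose by 1.7 ± 0.11 and 1.06 ± 0.16, and the secreted trefoil peptide TFF3 by 1.38 ± 0.08. TFAP2A, a relative of TFAP2C, read 9.84, 9.72 and 9.83 in control and 8.18 and 8.38 in HOXA9. E-cadherin, CDH1, stayed below the 30th percentile in all 5 arrays, at 5.72, 5.65 and 5.61 in control and 5.93 and 6.01 in HOXA9. Of 26 mesenchymal genes, 10 rose and 3 fell in both scalings, and 9 were higher and 10 lower with equal medians. S100A4 and FN1 led the rises, vimentin, VIM, rose by 0.68 ± 0.07 and TCF4 by 1.17 ± 0.12, and the repressor SNAI2 fell by 1.0 ± 0.07. In the S100 and annexin family 9 of 22 rose and 2 fell in both scalings, turning to 6 higher and 10 lower with equal medians. S100A6 rose by 1.75 ± 0.11 and S100A16 by 1.03 ± 0.09, and ANXA3 fell by 0.93 ± 0.08.

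Of 32 AP-1 and immediate early genes, 18 rose and 8 fell in both scalings, turning to 9 higher and 14 lower with equal medians. FOS read 6.67, 6.96 and 6.93 in control and 8.88 and 8.83 in HOXA9, below the 9.55 and 9.35 of Tet1 (HOXA9 minus Tet1 -0.6 ± 0.1, adjusted p = 0.033). JUNB rose by 1.12 ± 0.07, EGR3 by 1.28 ± 0.09 and the ERK phosphatase DUSP6 by 1.15 ± 0.11, while ETV5 fell by 0.87 ± 0.08. Of 34 receptor tyrosine kinase and ephrin genes, 7 rose and 10 fell in both scalings, and 5 were higher and 21 lower with equal medians. EPHA7 rose by 1.97 ± 0.09, EPHA3 by 1.44 ± 0.07 and EPHA4 by 1.0 ± 0.08, while EGFR fell by 0.66 ± 0.09. EPHA7 and EPHA3 started below the 30th percentile in control. Of 35 Wnt and Notch genes, 12 rose (34.3%) and 10 fell (28.6%) in both scalings, beside 29.0% and 20.5% of all genes. The balance turned to 9 higher and 16 lower with equal medians. The Wnt effector LEF1 fell by 1.36 ± 0.09 and the receptor FZD7 by 0.98 ± 0.11, while the receptor FZD8 rose by 1.14 ± 0.11 and the Notch target HEY1 by 1.39 ± 0.11.

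In energy metabolism, 14 of 33 oxidative phosphorylation genes rose and 9 fell in both scalings, a balance that turned to 6 higher and 23 lower with equal medians. COX6C read 9.0, 8.96 and 8.87 in control and 11.34 and 11.12 in HOXA9, COX7B read 7.19, 6.6 and 7.74 against 9.11 and 9.4, and NDUFA1 rose by 1.5 ± 0.12. SDHA, a subunit of complex II, fell by 0.55 ± 0.06. Of 25 cholesterol and fatty acid synthesis genes, 8 rose and 3 fell in both scalings, turning to 2 higher and 13 lower with equal medians. HMGCS1, an early enzyme of the cholesterol pathway, rose by 1.64 ± 0.24 and fatty acid synthase, FASN, fell by 1.0 ± 0.12. Ribosomal protein genes had 19 of 31 members higher and 2 lower in both scalings, and 10 higher and 9 lower with equal medians. RPL27 rose by 1.59 ± 0.06 and RPL23 fell by 0.82 ± 0.07. RPL13 rose by 1.63 ± 0.08 on the probe set used, and its other probe sets differed by 1.23 and 0.32. Such genes have many processed pseudogenes, whose transcripts the probes may share.

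Of 21 unfolded protein response genes, 11 rose and 2 fell in both scalings, turning to 3 higher and 9 lower with equal medians, with 0 at 2-fold. SEL1L, an adaptor of endoplasmic reticulum degradation, rose by 0.87 ± 0.07 and the chaperone CALR by 0.75 ± 0.06, and CREB3L2 fell by 0.95 ± 0.08. Heat shock chaperones had 5 of 20 members higher and 6 lower in both scalings, and 4 higher and 13 lower with equal medians. HSPA6 and the small heat shock protein CRYAB (1.85 ± 0.07, from control values below the 30th percentile) rose, whereas HSPB8 fell by 1.25 ± 0.23, FKBP4 by 0.91 ± 0.06 and the mitochondrial chaperonin HSPD1 by 0.7 ± 0.07. In the lysosome and autophagy list 9 of 28 rose and 6 fell in both scalings, turning to 8 higher and 18 lower with equal medians, with the ATG8 protein GABARAPL1 at 1.18 and the cathepsin CTSO at 1.69 the 2-fold rises.

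Of 8 measured cofactors of HOXA9, 1 rose and 3 fell in both scalings, near the 49.4% of all genes called, and 0 reached 2-fold. PBX3, the partner that HOXA9 uses in leukaemia, read 10.06, 10.25 and 10.17 in control and 9.5 and 9.7 in HOXA9 (fall of -0.56 ± 0.08), and PKNOX1 rose by 0.66 ± 0.07. MEIS1 differed by 0.62 as deposited and by 0.16 after quantile normalization (adjusted p = 0.12), so no direction is given. Of 26 genes of the HOXB, HOXC and HOXD clusters, 3 rose and 2 fell in both scalings. HOXB9 fell by 0.6 ± 0.12, and HOXD1 rose by 0.61 ± 0.07 but lost its call with equal array medians, at 0.15.

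Of 19 genes described elsewhere as HOXA9 targets, 6 rose (31.6%) and 5 fell (26.3%) in both scalings, near the 29.0% and 20.5% of all genes. The balance turned to 5 higher and 12 lower with equal medians, and 0 reached 2-fold in both scalings. SOX4 read 8.08, 8.02 and 8.16 in control and 9.17 and 9.09 in HOXA9 (rise of 1.05 ± 0.09), ID2 rose by 0.92 ± 0.15 and endothelial nitric oxide synthase, NOS3, by 0.83 ± 0.09. BRCA1, a proposed HOXA9 target in breast cells, fell by 0.66 ± 0.07, from 9.34, 9.31 and 9.26 to 8.6 and 8.7. BCL2 fell by 0.38 ± 0.08, and IGF1R fell by 0.58 ± 0.07 on the probe set used and differed by 0.07 on another, dimmer one. CDK6 and MYB, targets known from leukaemia, were not called in both scalings, at 0.05 and 0.07. In the promoters of the leading genes, the PBX-HOX composite letters TGATTTA, searched on both strands, stood in 0 of 11 leading rises and 0 of 6 leading falls with a promoter in the table, against 2.73% of all 14239 genes. The MEIS letters TGACAG stood in 2 of 11 leading rises (18.2%), against 18.8% of all genes. They stood in 4 of 6 leading falls (66.7%: P3H2, NQO1, ROR1 and MARS2). Of the 6 leading genes higher than Tet1, 5 had a promoter in the table. The PBX-HOX letters stood in 0 of these 5 and the MEIS letters in 3 (60.0%: SLC14A1, TMPRSS15 and AK5). Such shares rest on few promoters and were not tested. The promoters are short windows at the start site, and distal elements were not searched.

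Markers of the line itself were present. All 12 measured genes of the basal MDA-MB-231 list lay above the 30th percentile in both groups, and their summed level on the log2 scale was 15.91 to 15.92 in control and 16.12 to 16.19 in HOXA9. CD44 fell by 0.49 ± 0.08, and AXL fell by 0.28 ± 0.1, which lost its call without control replicate 2, control replicate 3 or HOXA9 replicate 1. ESR1 read 6.04, 6.01 and 6.12 in control and 6.89 and 7.03 in HOXA9 on the probe set used, a rise of 0.91 as deposited and 0.35 after quantile normalization. Another, dimmer probe set of ESR1 differed by 0.55 as deposited and by 0.03 after quantile normalization. GATA3 read 7.76 to 7.95 in control and 7.91 to 8.02 in HOXA9.

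Summed levels of the blood, fibroblast, endothelial and kidney marker lists stood higher in HOXA9 as deposited, where the array medians were also higher, and their part in the results was not tested. Of 10 blood cell genes, 5 rose and 0 fell in both scalings, and their summed level was 9.54 to 9.56 in control and 11.01 to 11.14 in HOXA9. CD96 carried that sum, with LYZ (1.95 ± 0.08), while the defining markers PTPRC and MS4A1 stayed below the 30th percentile in both groups. Of 11 fibroblast genes, 9 rose and 0 fell in both scalings, with a summed level of 9.91 to 10.0 against 10.8 to 10.86. DPT led that list (1.8 ± 0.07), and DCN, LUM, FAP and POSTN stayed below the 30th percentile in both groups. Endothelial genes had 6 of 10 higher and 2 lower, summing to 10.4 to 10.52 and 10.9 to 10.91, with TIE1 at 1.7 ± 0.13 and ERG and EMCN below the 30th percentile in both groups. Kidney genes typical of HEK293, the packaging line for lentivirus, had 2 of 10 higher and 2 lower in both scalings, with sums of 10.03 to 10.15 and 10.34 to 10.47. LHX1 rose by 1.2 and PAX2 by 0.68, while WT1 fell by 0.23 and NEFL by 0.19. The falls lost their calls without control replicate 1, control replicate 2 or HOXA9 replicate 2, that of NEFL also without control replicate 3. The list median was -0.04 after quantile normalization, and CDH6 and IRS4 were below the 30th percentile in both groups. Of 8 bone cell genes, 4 rose and 0 fell in both scalings, and their sums overlapped, at 10.55 to 10.82 in control and 10.81 to 10.86 in HOXA9, with IBSP, CALCR and DCSTAMP below the 30th percentile in both groups. In bulk RNA, fewer or more cells of a type and less or more RNA per cell cannot be told apart.

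Small RNAs were measured through probe sets on their genes, so a value reads precursor or host transcript as well as the mature RNA. MicroRNAs pair through bases 2 to 8, the seed, with sites in messenger RNAs and lower their output. Of 173 microRNA genes, 62 rose and 15 fell in both scalings, turning to 51 higher and 70 lower with equal array medians, and 4 rose (2.3%) and 2 fell (1.2%) at least 2-fold, near the 2.26% and 1.75% of all genes. A mature product of each of those 6 is shown 5′ to 3′ from RefSeq, with the seed in capitals, because the seed sets which messenger RNAs it can pair with. On GRCh38.p14 these lie at chr17:59841273-59841294 (plus strand), chr11:122152275-122152296 (minus strand), chr7:128207920-128207941 (plus strand), chr22:20033153-20033174 (plus strand), chrX:45747036-45747056 (minus strand) and chr3:52268336-52268357 (minus strand), in the order given. The first 4 belong to genes that rose and the last 2 to genes that fell, and no seed is shared among the 6.
hsa-miR-21-5p: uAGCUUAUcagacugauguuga
hsa-miR-100-5p: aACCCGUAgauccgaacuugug
hsa-miR-129-1-3p: aAGCCCUUaccccaaaaaguau
hsa-miR-185-5p: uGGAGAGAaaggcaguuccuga
hsa-miR-222-3p: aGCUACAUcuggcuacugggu
hsa-let-7g-5p: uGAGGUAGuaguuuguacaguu

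MIR21, an abundant microRNA gene in tumours, read 9.38, 8.87 and 9.29 in control, 11.33 and 11.22 in HOXA9 and 10.32 and 10.24 in Tet1. It rose by 2.09 ± 0.13 against control and stood 1.0 ± 0.14 above Tet1 (limma adjusted p = 0.01), so the 3 groups did not overlap. MIR100 read 6.27, 6.05 and 5.87 in control, 7.95 and 8.26 in HOXA9 and 7.11 and 7.1 in Tet1, with a HOXA9 minus Tet1 difference of 1.0 ± 0.16 (adjusted p = 0.019). MIR222, whose product lowers the cell-cycle inhibitor p27 in many tumours, read 8.69, 8.47 and 8.59 in control, 7.4 and 7.62 in HOXA9 and 6.54 and 6.57 in Tet1. HOXA9 thus lay between control and Tet1 for MIR222, 0.95 ± 0.13 above Tet1 (adjusted p = 0.0074). MIRLET7G, a member of the let-7 family that represses HMGA2 and RAS, read 8.11, 7.65 and 8.08 in control and 5.99 and 6.27 in HOXA9, a fall of -1.82 ± 0.16. The Tet1 arrays were as low, at 5.93 and 6.02, and the HOXA9 minus Tet1 difference of 0.16 was not called (limma adjusted p = 0.84). The HOXA9 mean of MIRLET7G, 6.13, lay below the 30th percentile of 6.22. MIR129-1 and MIR185 rose by 1.51 and 1.36, 2.04-fold and 2.01-fold after quantile normalization. Their HOXA9 minus Tet1 differences, -0.07 and -0.11, were not called (limma adjusted p = 0.85 and 0.88). Against Tet1, 9 microRNA genes were higher in HOXA9 and 0 lower, beside 0.32% and 0.114% of all genes tested.

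Small nucleolar and Cajal body RNAs, which guide the chemical modification of ribosomal and spliceosomal RNA, rose in large number: 53 of 193 (27.5%) rose and 2 fell at least 2-fold, and 83 rose and 35 fell in both scalings. With equal array medians 73 were higher and 85 lower, beside 3730 higher and 9406 lower of all 18417 genes, so the rise lies in part of the class. SNORA60 read 6.43, 6.41 and 6.4 in control and 10.74 and 10.34 in HOXA9, a rise of 4.12 ± 0.12 and the largest of all named small RNAs. SNORA38B rose by 3.66 ± 0.07 and SNORA20 by 3.65 ± 0.08, whereas SNORD52 fell by 1.42 ± 0.12 and SNORD78 by 1.12 ± 0.15. The Tet1 arrays read the same genes at similar levels, 10.69 and 10.41 for SNORA60, and limma called 0 of the 193 different between HOXA9 and Tet1 at adjusted p under 0.05 in the deposited scaling and 31 at an unadjusted p under 0.05. After quantile normalization 4 were called, SCARNA17 (-0.68), SNORA37 (-0.46) and SNORA7B (-0.45) lower in HOXA9 and SNORD49A (0.5) higher. This class was picked out after its values were seen, and its recovery in RNA can vary between preparations and array sets, which was not tested.

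Within the shared array set, HOXA9 and Tet1 cells differed in few genes. The fit called 80 of 18417 genes (0.434%), 59 higher in HOXA9 (0.32%) and 21 lower (0.114%), and 1687 at an unadjusted p under 0.05. Of the 80, 12 differed at least 2-fold. The count moved with single arrays and with the scaling: it was 17 without HOXA9 replicate 2, 11 without Tet1 replicate 1, 18 without Tet1 replicate 2 and 145 after quantile normalization. Values against control are given beside this contrast, and the comparisons share the HOXA9 arrays.

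SLC14A1 had the largest difference from Tet1, and MMP13 the smallest adjusted p. SLC14A1 read 10.09 and 10.19 in HOXA9, 7.25 and 7.42 in Tet1 and 6.59, 6.47 and 7.31 in control, and the HOXA9 minus Tet1 difference was 2.81 ± 0.2 (limma adjusted p = 8.3e-05). MMP13 read 8.75 and 8.99 in HOXA9, 6.27 and 6.15 in Tet1 and at most 5.39 in control, with a difference from Tet1 of 2.66 ± 0.09 (adjusted p = 6.1e-08). TMPRSS15 read 9.87 and 10.21 in HOXA9 against 7.96 and 8.04 in Tet1, a difference of 2.04 ± 0.21 (adjusted p = 0.001). The Tet1 arrays thus lay near control for SLC14A1 and partway for MMP13 and TMPRSS15. RGS2, which damps G protein signalling, read 10.31 and 10.65 in HOXA9, 9.25 and 9.4 in Tet1 and 7.67 to 7.94 in control. Its difference from Tet1 was 1.15 ± 0.13 (adjusted p = 0.0024), lost without Tet1 replicate 1 (adjusted p = 0.073), and the 3 groups did not overlap. The membrane proteins MALL and ZDHHC15 stood 0.98 and 0.93 above Tet1. The cytokine receptor IL23R also stood 0.93 above Tet1, but its values lay below the 30th percentile in all 3 groups. It read 5.72 and 6.17 in HOXA9, 5.04 and 4.98 in Tet1 and near 4.8 in control.

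PARM1, AK5 and FST were lower than control in both lines but less so in HOXA9. PARM1 read 8.92, 8.66 and 8.56 in control, 8.15 and 8.3 in HOXA9 and 7.18 and 7.14 in Tet1. AK5, an adenylate kinase, read 8.51, 8.3 and 8.95 in control, 7.49 and 7.44 in HOXA9 and 6.37 and 6.5 in Tet1. Follistatin, FST, an activin antagonist, stood 0.86 ± 0.15 above Tet1 (adjusted p = 0.033). The differences of PARM1 and AK5 from Tet1 were 1.07 and 1.03, and leaving out any 1 of the 4 arrays ended both calls.

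Among genes lower in HOXA9 than in Tet1, the TNF family cytokine TNFSF15 read 8.19 and 8.31 in HOXA9, 9.48 and 9.53 in Tet1 and 6.14, 6.32 and 6.57 in control (HOXA9 minus Tet1 -1.25 ± 0.12, adjusted p = 0.001). The acute-phase serpin SERPINA3 read 7.14 and 7.27 in HOXA9 and 7.98 and 8.27 in Tet1, with control below the 30th percentile at 5.65 to 5.72. For both genes HOXA9 lay between control and Tet1. EFEMP1 was lowest in HOXA9, at 8.76 and 8.8, against 9.71 and 9.66 in Tet1 and 10.1 to 10.51 in control. HMOX1, CXCL8 and CRYAB stood 0.85, 0.72 and 0.66 below Tet1, and for all 3 the HOXA9 arrays lay above control. The calls of EFEMP1 and CXCL8 ended without any 1 of the 4 arrays, and that of CRYAB without Tet1 replicate 1 (adjusted p = 0.073). PMEPA1 was also lower in HOXA9 than in Tet1, by 0.65 ± 0.11 (adjusted p = 0.032).

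**Figure D5:**
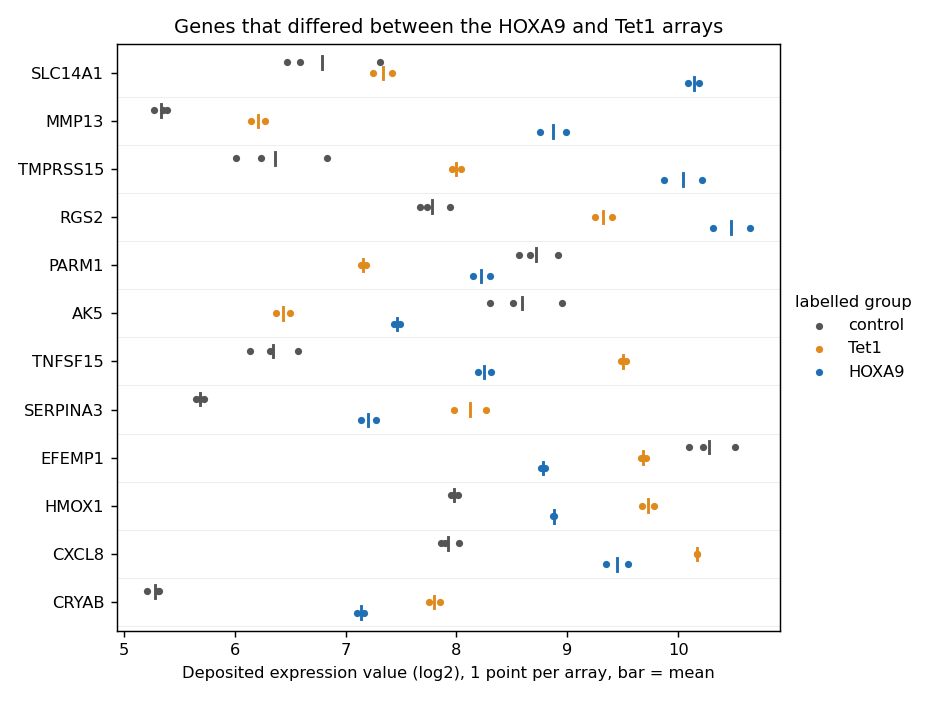
Deposited log2 values (x axis) of the 6 genes in each direction with the largest HOXA9 minus Tet1 difference that also changed against control, 1 point per array (3 control, 2 Tet1, 2 HOXA9) with a bar at each group mean. SLC14A1, MMP13 and TMPRSS15 reach 8.75 to 10.21 in HOXA9 and 6.15 to 8.04 in Tet1. EFEMP1 is lowest in HOXA9, and TNFSF15 highest in Tet1.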

How the data were processed

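The series measured total RNA, extracted with a miRNeasy kit per the labels' protocols, on Affymetrix Human Gene 1.0 ST arrays. The deposited table holds log2 values per probe set, for which the submitters' processing notes name RMA and R 2.11. The sources used here do not say whether the authors normalized all arrays jointly. Of 33297 probe sets, 19460 carry 1 gene symbol, 1754 several and 12083 are not listed in the annotation. The 18417 genes each used 1 probe set, and for the 769 genes with several the brightest on average over the 10 arrays was taken. No detection calls exist, so values under 6.22, the 30th percentile of all values, are described as dim. The number of arrays limits the precision.

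A model over 4 groups (3 control, 3 shHMGA2, 2 Tet1, 2 HOXA9 arrays) was fitted with limma 3.58.1 (lmFit and eBayes, 6 residual degrees of freedom) in R 4.3.3. The 2 columns that equal the mean of their sister replicates, within 1e-06, were left out. P-values were adjusted by Benjamini-Hochberg over all 18417 genes. The fit was repeated after 1 quantile normalization and with equal array medians, and the 2-fold criterion was added after most genes passed the test. Fits were tested on simulated data.

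Named genes were the 12 largest rises and 12 largest falls among genes called in both scalings, with groups that do not overlap and at least one group mean over the 30th percentile, leaving out noncoding RNAs and unnamed loci. To these came up to 3 rising and 3 falling members of each list by the same rule. The 6 largest called differences from Tet1 in each direction that were also called against control were added. So were the probe set of TET1 and the one shared by HMGA2 and ELAC2, with that of ELAC2 alone beside it. No probe set was assigned to HOXA9. The members and lists were chosen with earlier results of these data known. Other list members, other genes described against Tet1 and the small RNAs were named after their values were seen. A list is described by its counts and median, with no test. Alternatives were other groups in the fit, the averaged columns kept, a mean-variance trend, dim genes left out, all probe sets, the replicate number as a block and leaving out each array. Deviations of arrays with the same number correlated at -0.04 between HOXA9 and control and at 0.17 between HOXA9 and Tet1. With 2 pairs each, these values cannot settle whether the numbers pair the arrays, and the main fit treated the arrays as unpaired.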

Additional observations from a re-analysis of the deposited data

Results flagged for a closer look

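Of the 80 genes whose change against control differed between the HOXA9 line and the line labelled Tet1 by the limma contrast of the pair, the 6 largest differences in each direction among genes also called against control are given. Higher in HOXA9 were SLC14A1 (2.81 on the log2 scale), MMP13 (2.66), TMPRSS15 (2.04), RGS2 (1.15), PARM1 (1.07) and AK5 (1.03). Lower in HOXA9 were TNFSF15 (-1.25), SERPINA3 (-0.92), EFEMP1 (-0.9), HMOX1 (-0.85), CXCL8 (-0.72) and CRYAB (-0.66). Both HOXA9 arrays lay on the same side of both Tet1 arrays in each of the 12. Leaving out any 1 of the 4 arrays kept the calls of SLC14A1, MMP13, TMPRSS15, TNFSF15, SERPINA3 and HMOX1.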

How the results depend on the processing

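Against control, counts of called genes kept within 1.5 times under each alternative run: with 1 array left out they were 12398 to 13575 in the deposited scaling, 7460 to 8657 in both scalings and 724 to 795 at 2-fold in both. The HOXA9 against Tet1 count of 80 moved to 143 when only these arrays were fitted, to 1112 when the averaged columns were counted as samples, and to 145 after quantile normalization. With 1 array left out it was 11 to 72; the lone array left in such a group is assumed to vary like the other groups. Among genes called as deposited, differences that changed sign were CDH1 (-0.11 after quantile normalization, -0.15 with equal medians), DCN (-0.15) and PTPRC (-0.16) with equal medians. The other probe sets of IGF1R (0.07) and SLC1A5 (0.45) also had the opposite sign. Among genes not called as deposited, 6 changed sign with equal medians and 5 after quantile normalization. A further 3 such sign changes arose with 1 array left out. The cause was not tested. Of the 236 genes examined singly, 5 lost their call with equal medians and 2 after quantile normalization. The samples share only a replicate number: with that number as a block, the counts were 13805 against control, 8846 in both scalings, 736 at 2-fold and 69 against Tet1. No batch fit was possible because no group has arrays in both array sets.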

Other observations

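Some of the large changes fell outside the gene lists and were picked out after their values were seen. MAGEC2, a cancer-testis antigen, rose by 2.47 and SLC1A1, a glutamate transporter, by 2.45, and both also stood above Tet1, by 0.69 and 0.51. Secreted proteins were among the rises: the serpin SERPINF1, or PEDF, which inhibits vessel growth, rose by 2.58, the elastase inhibitor SERPINA1 by 2.22, the calcium and phosphate hormone STC1 by 2.12 and the growth factor binding protein IGFBP3 by 1.87. The transferrin receptor TFRC, which imports iron, read 12.42, 12.49 and 12.49 in control and 10.26 and 10.41 in HOXA9, a fall of -2.13. The copper importer SLC31A1 fell by 2.07 and the D-type cyclin CCND2 by 1.85. The groups did not overlap for TFRC.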
